A study of Sus scrofa with 5 samples.

Results

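The 10 genes described here encode transcription factors that set or mark the identity of granulosa and theca cells: FOXL2, WT1, RUNX1, RUNX2, GATA4, GATA6, LHX9, SOX4, NR2F2 and TCF21. They were taken by symbol from the 30822 genes listed for each library, and all 10 were found, each as 1 row. The libraries come from whole ovarian follicles of female Indian Ghoongroo pigs (Sus scrofa), 3 from large and 2 from small follicles, with no drug or genetic change named in the labels. The labels call the replicates biological but do not tie them to separate animals, so every p-value here reflects spread among these libraries alone. Follicle diameter, animal age and the number of follicles pooled into a library are likewise not stated in the labels.

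A follicle holds granulosa cells around the oocyte and, outside a basement membrane, theca cells that arise from the ovarian stroma. FOXL2, a forkhead factor, keeps granulosa cells from taking on testis-like identity, and WT1, a zinc finger factor, and RUNX1, a runt factor, are known in the same lineage. NR2F2 (COUP-TFII), an orphan nuclear receptor, and TCF21, a basic helix-loop-helix factor, are known from stroma and from the theca cells that derive from it. GATA4 and GATA6, zinc finger factors that drive steroidogenic genes, work in both compartments. RUNX2 is known from granulosa cells around ovulation, LHX9 from the early gonad, and SOX4 from progenitors of many tissues.

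Libraries held 9523739 to 11507527 fragments, so that 3 fragments on 2000 bases of gene amount to 0.1303 to 0.158 FPKM, a level scaled by gene length and library total. Both compartments were present in every library: the inhibin subunit INHA of granulosa cells ranged from 2876 to 11739 FPKM, and the theca hormone INSL3 from 446 to 1115 FPKM. Genes of the whole table were not spread evenly over libraries, which touches every result here. Among 13087 genes tested, 62.0% had their lowest large follicle value in replicate 2, and 45.9% had their highest value of all in small follicle replicate 2. The factors did much the same: 5 of 10 were lowest among large follicles in replicate 2, and 4 of 10 were highest of all in small follicle replicate 2.

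GATA6, NR2F2, GATA4 and TCF21 were the most abundant of the 10, and RUNX1, LHX9 and RUNX2 the least. GATA6 had the highest mean over the 5 libraries, 56.6 ± 15.8 FPKM (SD, n = 5), followed by NR2F2 at 41.0 ± 11.4, GATA4 at 40.1 ± 8.44 and TCF21 at 36.3 ± 5.79 FPKM. FOXL2 at 24.96 ± 11.5, WT1 at 24.5 ± 3.99 and SOX4 at 23.1 ± 9.59 FPKM lay next. RUNX1 at 6.14 ± 0.475, LHX9 at 4.32 ± 1.51 and RUNX2 at 2.62 ± 1.11 FPKM held the last 3 places in every library, and RUNX2 was last in all 5. Among the other 7, neighbours in this order differed by less than the larger SD of each pair, and TCF21, not GATA6, was highest in large follicle replicate 1. FPKM is a level per length, but for 7 factors the authors' values imply a length shorter than the one listed, such as 3325 in place of 5591 bases for WT1, so the order of close levels is uncertain.

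**Figure D1:**
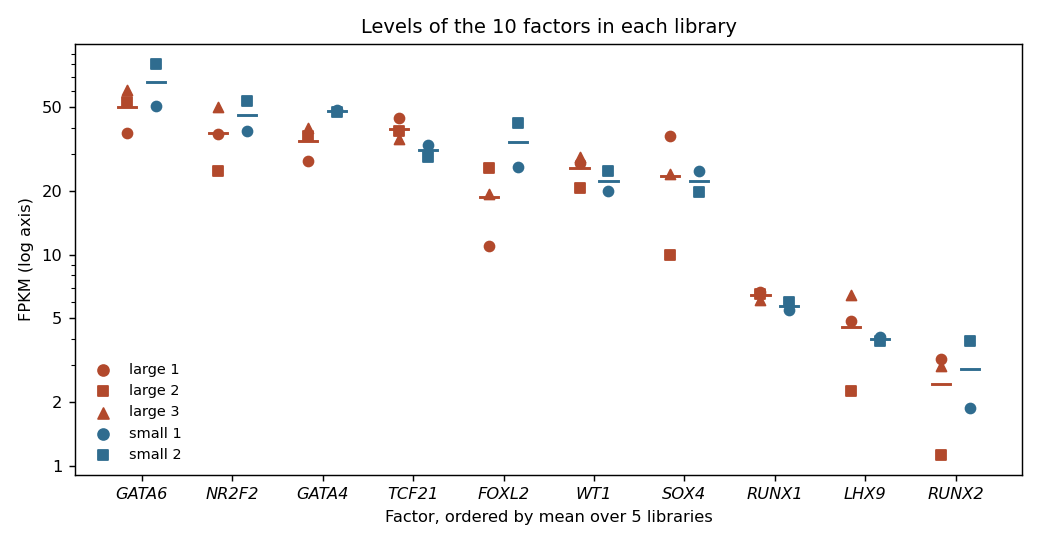
FPKM of each factor (log axis) in large follicle replicates 1 to 3 (left, red) and small follicle replicates 1 and 2 (right, blue), with short lines at the group means. RUNX1, LHX9 and RUNX2 lie below 8 FPKM in every library, and SOX4 spreads over 9.98 to 36.5 FPKM among large follicles.

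No factor was called different between large and small follicles. With limma on log2(FPKM + 1) and Benjamini-Hochberg adjustment over all 13087 genes tested, 0 of 10 passed an adjusted p under 0.05, where 0.978% of all tested genes did, 0.535% as higher and 0.443% as lower in large follicles. Before adjustment 1 of 10, FOXL2, had a p under 0.05, against 10.4% of tested genes. Voom, a weighted fit on fragments worked back from the FPKM values, called 0 of 10 as well, against 69 of 13087 tested genes. It passed FOXL2 alone at an unadjusted p under 0.05, against 1311 of 13087. The values of 4 factors did not overlap between the groups: FOXL2 and GATA4 lay lower, and TCF21 and RUNX1 higher, in large follicles. Over all tested genes 26.1% did not overlap, 15.2% lower and 10.9% higher. All 4 of these separations were lost when libraries were rescaled by the median of gene ratios, and WT1 then separated, as higher in large follicles. That scaling left 29.6% of all tested genes without overlap, 15.1% higher and 14.5% lower. With libraries scaled to a common sum, where 22.2% of tested genes did not overlap, the separation of RUNX1 was lost.

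**Figure D2:**
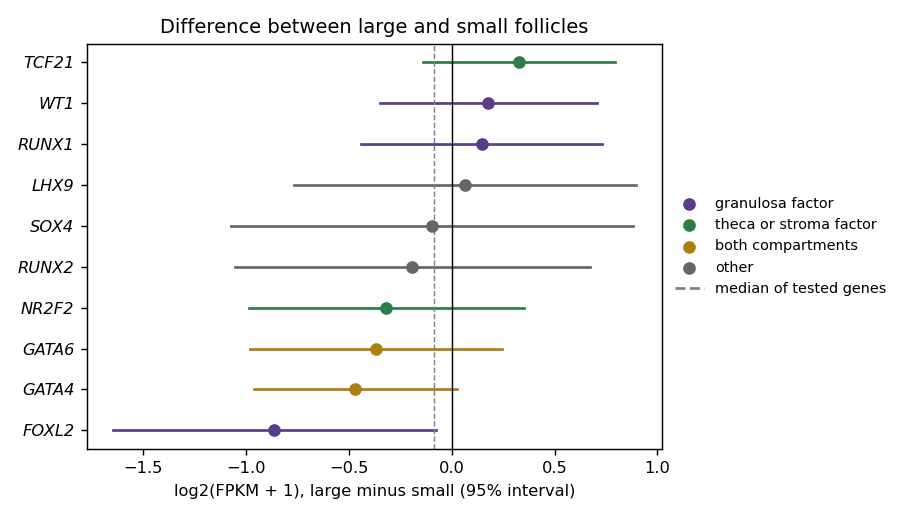
Difference of log2(FPKM + 1), large minus small, with its 95% interval from limma for each factor; the dashed line marks the median of all tested genes, -0.08. The interval of FOXL2 ends just short of 0 before adjustment, and the 9 others include 0.

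FOXL2 (gene 100622956, Sscrofa11.1 chromosome 13, 79708693 to 79709825, minus strand) had the largest difference of the 10. Its levels were 11.06, 25.9 and 19.5 FPKM in large follicle replicates 1, 2 and 3, and 26.0 and 42.3 FPKM in small follicle replicates 1 and 2, from 144 to 480 fragments. The groups touch: the highest large and the lowest small follicle value are 25.93 and 25.99 FPKM. The mean was 18.8 ± 7.46 FPKM (SD, n = 3) in large and 34.1 ± 11.5 FPKM (SD, n = 2) in small follicles, 1.81-fold higher in small ones. On the log2(FPKM + 1) scale the difference was -0.86 (SE 0.35, 95% interval -1.64 to -0.08, limma adjusted p = 0.421). It was -0.54 without large follicle replicate 1 and -0.52 without small follicle replicate 2, where limma adjusted p values were 0.882 and 0.9996, and -1.12 without large follicle replicate 2 (limma adjusted p = 0.0799). FOXL2 had a listed length of 1131 bases, the shortest of the 10, and no family in the authors' annotation. Added to the genes annotated as forkhead, FOXL2 ranked 3 among 40 by mean level. Of these, FOXO1, a factor held in check by insulin signalling, was highest at 55.4 ± 10.5 FPKM (SD, n = 5).

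The other granulosa factors did not share the direction of FOXL2. WT1 (gene 397338, chromosome 2, 28411467 to 28456007) had 27.3, 20.7 and 29.2 FPKM in large and 20.1 and 24.9 FPKM in small follicles. Of the small follicle values 1 lay within the range of the large ones and the other just below it, and the log2 difference was 0.18 (SE 0.24, 95% interval -0.35 to 0.71, limma adjusted p = 0.882). RUNX1 (gene 100512633, chromosome 13, 198371835 to 198635648) had the tightest values, 6.64, 6.54 and 6.09 FPKM in large and 5.46 and 5.96 FPKM in small follicles. The groups of RUNX1 were separate but close, with a log2 difference of 0.15 (SE 0.26, 95% interval -0.44 to 0.73, limma adjusted p = 0.917). RUNX1 is also a factor of blood cells, and the summed level of 10 myeloid markers was 351 to 471 FPKM in large and 279 to 301 FPKM in small follicles. Of these markers, 9 had higher and 1 lower values, and 1, the lysozyme LYZ, was called higher, against 0.535% of all tested genes. The part of myeloid cells in the RUNX1 level was not tested.

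The theca and stroma factors went in opposite directions, neither past the test. TCF21 (gene 100152962, chromosome 1, 29975280 to 29978273) had 44.6, 38.8 and 35.4 FPKM in large and 33.3 and 29.2 FPKM in small follicles. Every large follicle value was above both small ones, and the means of 39.6 ± 4.62 (SD, n = 3) and 31.3 ± 2.89 FPKM (SD, n = 2) gave a log2 difference of 0.33 (SE 0.21, 95% interval -0.14 to 0.79, limma adjusted p = 0.686). NR2F2 (gene 100153983, chromosome 7, 83076119 to 83090250) had 37.5, 25.0 and 50.5 FPKM in large and 38.5 and 53.4 FPKM in small follicles. Its groups overlapped, at a log2 difference of -0.32 (SE 0.30, 95% interval -0.99 to 0.35, limma adjusted p = 0.815). That difference was -0.06 without large follicle replicate 2, the lowest library, and -0.09 without small follicle replicate 2, the highest. NR2F2 had the highest level of 11 genes that the authors' annotation places in its receptor family, with its close relative NR2F1 next at 35.4 ± 5.21 FPKM (SD, n = 5). Beside TCF21, the summed level of 12 stroma and fibroblast markers was 4988 to 6816 FPKM in large and 4690 to 4881 FPKM in small follicles, 8 of them with higher and 4 with lower values. The microfibril protein MFAP4 was the 1 of 12 called higher, against 0.535% of all tested genes, at a log2 difference of 1.75 (SE 0.21, limma adjusted p = 0.00641, and 0.0520 with no filter on low values). The part of stroma in the TCF21 level was not tested.

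Both GATA factors had lower means in large follicles. GATA4 (gene 397555, chromosome 14, 14858470 to 14938156) had 28.0, 36.5 and 39.9 FPKM in large and 48.4 and 47.6 FPKM in small follicles. All large follicle values lay below the small ones, and the log2 difference was -0.47 (SE 0.22, 95% interval -0.96 to 0.02, limma adjusted p = 0.514). GATA6 (gene 397600, chromosome 6, 107282709 to 107314725) had 37.7, 53.0 and 60.8 FPKM in large and 51.1 and 80.7 FPKM in small follicles. These ranges overlapped, at a log2 difference of -0.37 (SE 0.27, 95% interval -0.98 to 0.24, limma adjusted p = 0.741). Without small follicle replicate 2, its highest library, the log2 difference of GATA6 was -0.04. GATA6 exceeded GATA4 in every library, by 1.35, 1.45 and 1.52 times in large and by 1.06 and 1.70 times in small follicles.

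For 8 of 10 factors, all but RUNX1 and TCF21, the log2 range within large follicles exceeded the difference between the groups, as it did for 78.8% of all tested genes. SOX4 had the widest range. SOX4 (gene 100512542, chromosome 7, 16886834 to 16895488) had 36.5, 9.98 and 24.1 FPKM in large and 25.0 and 19.9 FPKM in small follicles. The large follicle libraries span 3.66-fold and enclose both small ones, with a log2 difference of -0.10 (SE 0.44, 95% interval -1.07 to 0.88, limma adjusted p = 0.969). LHX9 (gene 397597, chromosome 10, 20742323 to 20764006) had 4.89, 2.28 and 6.43 FPKM in large and 4.08 and 3.92 FPKM in small follicles, a log2 difference of 0.07 (SE 0.37, 95% interval -0.76 to 0.89, limma adjusted p = 0.978). RUNX2 (gene 100737965, chromosome 7, 40106581 to 40353304) had 3.22, 1.12 and 2.97 FPKM in large and 1.88 and 3.90 FPKM in small follicles, from 64 to 223 fragments, a log2 difference of -0.19 (SE 0.38, 95% interval -1.05 to 0.67, limma adjusted p = 0.929). All 3 were lowest in large follicle replicate 2, and their direction turned when single libraries were left out. The median range within large follicles over all tested genes was 1.45-fold on the FPKM + 1 scale, against 3.42-fold for SOX4, 2.27-fold for LHX9, 2.23-fold for FOXL2, 1.99-fold for RUNX2 and 1.98-fold for NR2F2. LHX9 and WT1 are also known from the ovarian surface epithelium. Of 9 listed markers of that layer, 6 were below the filter, among them UPK3B at no more than 0.139 FPKM and the keratin KRT18 at no more than 0.438 FPKM. The keratin KRT8 had 4.02 to 9.31 FPKM in large and 8.98 to 13.7 FPKM in small follicles, KRT19 had 1.65 to 4.87 against 0.265 to 0.503 FPKM, and KRT7 had 0.650 to 2.35 against 0.419 to 0.547 FPKM. The 3 tested keratins had an unadjusted limma p under 0.05, against 10.4% of all tested genes. Voom gave 1 of the 3 such a p, against 1311 of 13087 tested genes. Neither limma nor voom called any. KRT19 and KRT7 reached the filter through large follicles alone, so that a difference was built into their selection and the count of 3 supports nothing. KRT8 went the other way, lower in large follicles at a log2 difference of -0.80. The summed level of the 9 markers was 8.15 to 19.9 FPKM in large and 12.7 to 16.4 FPKM in small follicles, and the part of these cells in the levels of WT1 and LHX9 was not tested.

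Set against each other, granulosa and theca factors gave no single reading of the cell shares. In bulk follicles fewer cells of a type and less RNA per cell cannot be told apart. The mean log2(FPKM + 1) of FOXL2, WT1 and RUNX1 minus that of NR2F2 and TCF21 was -1.60, -0.97 and -1.40 in large follicles, and it was -1.25 and -1.03 in small ones. The group means differed by -0.18, less than the SD of 0.32 among large follicles, and the ranges overlapped. The reading turned on the pair chosen. The FPKM ratio of FOXL2 to TCF21 was 0.248, 0.668 and 0.551 in large and 0.780 and 1.45 in small follicles, with no overlap. That outcome was fixed by the levels, since FOXL2 lay lower and TCF21 higher in every large follicle library. The ratio of FOXL2 to NR2F2 was 0.295, 1.04 and 0.387 in large and 0.675 and 0.791 in small follicles, and large follicle replicate 2 lay above both small ones. With WT1 in the place of FOXL2, the log2 difference from NR2F2 had a mean of -0.49 ± 0.26 (SD, n = 3) in large and -0.99 ± 0.12 (SD, n = 2) in small ones, which is the opposite order. Within 1 compartment the ratios varied between libraries as well. WT1 over FOXL2 was 2.47, 0.799 and 1.496 in large and 0.774 and 0.590 in small follicles, barely without overlap. TCF21 over NR2F2 was 1.19, 1.55 and 0.702 against 0.866 and 0.547, with overlap. Multiplying a library by a factor leaves these FPKM ratios as they are, which does not hold exactly for differences of log2(FPKM + 1). All are descriptions without a test.

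**Figure D3:**
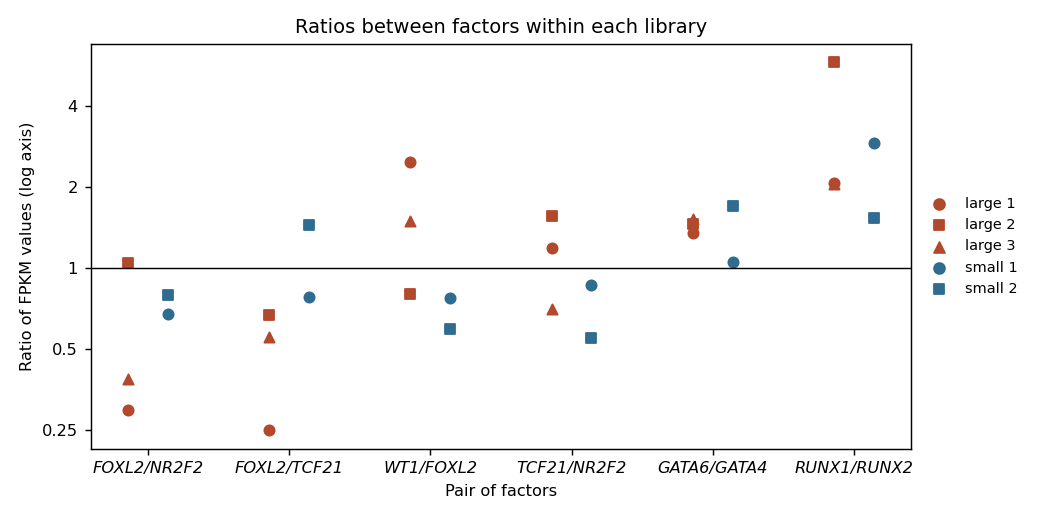
FPKM ratios between factors within each library (log axis, line at 1), large follicles left in red and small follicles right in blue. FOXL2 over TCF21 is lower in all 3 large follicle libraries, which the separate levels of both genes already fix. FOXL2 over NR2F2 overlaps, with large follicle replicate 2 at 1.04.

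Other genes of the cells gave no common direction either. Of 15 tested granulosa markers, 7 had higher and 8 lower values in large follicles, with a median log2 difference of -0.15 against -0.08 over all tested genes. Before adjustment 9 of 15 had a p under 0.05, against 10.4% of all tested genes, and 5 were higher and 4 lower without overlap, against 10.9% and 15.2%. The activin and inhibin subunit INHBB was the 1 of 15 called, as lower, against 0.443% of all tested genes. That call was lost with no filter (limma adjusted p = 0.166), at a mean of at least 5 FPKM (0.0522), without large follicle replicate 1 (0.0775) and without small follicle replicate 2 (0.0817). Of 12 tested theca markers, 8 had higher and 4 lower values, with a median of 0.27, and the androgen-forming enzyme CYP17A1 was the 1 of 12 called, as higher, against 0.535%, though not with no filter (limma adjusted p = 0.1397). The summed granulosa markers were 7499 to 16489 FPKM in large and 5589 to 8326 FPKM in small follicles, carried by INHA, and overlapped. The summed theca markers, carried by CYP17A1 and INSL3, were 1790 to 3713 FPKM in large and 740 to 1106 FPKM in small follicles, and did not overlap. CYP17A1 was separate between the groups, and INSL3 overlapped. Among the 12 theca markers, 2 were higher and 3 lower without overlap, against 10.9% and 15.2% of all tested genes. Before adjustment 4 of the 12 had a p under 0.05, against 10.4%. Beside these medians, the log2 differences were -0.86, 0.18 and 0.15 for FOXL2, WT1 and RUNX1, and -0.32 and 0.33 for NR2F2 and TCF21.

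Relatives and partners of the factors were taken from lists of 10 and 19 genes. Of 5 tested family members, 1 had higher and 4 lower values in large follicles. GATA1, the GATA factor of red cell, mast cell and platelet precursors, was the called member, as lower, where 0.443% of all tested genes were. It reached the filter through the small follicle libraries alone, so that a difference was built into its selection and its call supports nothing. It had 0, 0.0700 and 0.0669 FPKM in large and 1.25 and 1.81 FPKM in small follicles, that is 0, 1 and 1 against 17 and 26 fragments. Its log2(FPKM + 1) difference was -1.27 (SE 0.23, limma adjusted p = 0.0393), a scale on which so low a gene is understated. The call was lost with a pseudocount of 5 (limma adjusted p = 0.0685), with no filter (limma adjusted p = 0.0517), with a replicate block (limma adjusted p = 0.0780), without large follicle replicate 1 (limma adjusted p = 0.169) and without small follicle replicate 2 (limma adjusted p = 0.213). GATA2 at 2.40 to 4.62 FPKM overlapped between the groups, and GATA3, GATA5, RUNX3, SOX11 and LHX2 stayed below 0.6 FPKM in every library.

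Of 16 tested partners and other ovarian factors, 5 had higher and 11 lower values in large follicles, with a median of -0.39 against -0.08 over all tested genes. The count called by limma was 0, against 0.978% of all tested genes, with 4 of 16 at an unadjusted p under 0.05, against 10.4%. Voom likewise called 0, against 69 of 13087 tested genes, also with 4 at an unadjusted p under 0.05, against 1311 of 13087. The smallest p belonged to ZFPM1 (FOG1), a cofactor that binds GATA proteins, which had 7.30, 11.99 and 8.08 FPKM in large and 21.0 and 26.5 FPKM in small follicles. Its groups did not overlap, at a log2 difference of -1.31 (SE 0.27, limma adjusted p = 0.0658). Among the alternatives, ZFPM1 was called only without large follicle replicate 2 (limma adjusted p = 0.00863), where 268 of all tested genes were called. The limma adjusted p was 0.0607 with a common sum and 0.0546 without large follicle replicate 3. It was 0.219 without large follicle replicate 1, 0.181 with no filter and 0.278 with a replicate block. ZFPM2 (FOG2), the cofactor known to work with GATA4 in the gonad, had 1.92, 3.53 and 4.46 FPKM in large and 3.85 and 5.31 FPKM in small follicles, with overlap. NR5A1 (SF-1), which acts with GATA4 and WT1 on steroidogenic genes, had 44.0, 49.9 and 44.4 FPKM in large and 62.7 and 73.9 FPKM in small follicles (log2 difference -0.55, SE 0.20, limma adjusted p = 0.335). Of 8 testis genes listed, 4 were tested, 2 with higher and 2 with lower values. Limma and voom each called 0 of these 4 and gave 0 an unadjusted p under 0.05. Over all tested genes such a p was found for 10.4% with limma and for 1311 of 13087 with voom. PTGDS, a prostaglandin synthase, had 249 to 315 FPKM in large and 220 to 257 FPKM in small follicles (log2 difference 0.29), and the tight junction protein CLDN11 had 32.9 to 53.3 and 23.5 to 38.8 FPKM (log2 difference 0.47), both with overlap. SOX9, the testis factor that FOXL2 represses, was separate and lower in large follicles, with 2.67, 1.35 and 2.36 FPKM in large and 3.12 and 4.60 FPKM in small follicles (log2 difference -0.64, limma adjusted p = 0.543), and DMRT1 stayed at or below 0.273 FPKM.

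**Figure D4:**
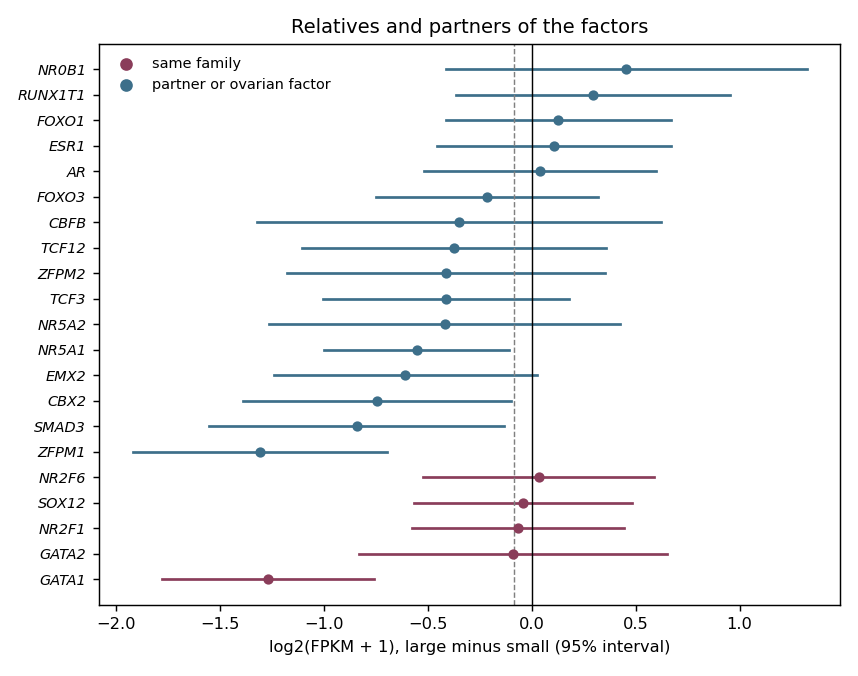
Difference of log2(FPKM + 1), large minus small, with its 95% interval for the 5 tested relatives and 16 tested partners of the factors; the dashed line marks the median of all tested genes. GATA1 at -1.27 and ZFPM1 at -1.31 lie farthest to the left.

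Annotated genes within 5000 bases were found beside 6 of the 10 factors, 5 of them on the other strand. No source used here says whether fragments were counted by strand, so where 4 of these overlap a factor the fragments may not be told apart. LOC110256304, a long noncoding RNA, does not overlap: 579 bases lie between it and FOXL2, and the genes are read away from each other (chromosome 13, 79710405 to 79712216). It had 1.52, 1.37 and 2.11 FPKM in large and 3.92 and 3.18 FPKM in small follicles, from 18 to 49 fragments. Like FOXL2 and 15.2% of all tested genes, it was separate between the groups and lower in large follicles. Its log2 difference was -0.78 (SE 0.28, limma adjusted p = 0.341). WT1 shares 146 bases with LOC102161978, a noncoding RNA read the other way at 69.2, 31.0 and 46.6 FPKM in large and 27.2 and 40.3 FPKM in small follicles. That RNA had a higher FPKM than WT1 in every library. Both had their lowest value in small follicle replicate 1, as did 25.0% of all tested genes. RUNX2 shares 54543 bases of its span with SUPT3H, a coactivator subunit whose 23.8 to 25.1 FPKM in large and 29.3 to 41.3 FPKM in small follicles far exceed those of RUNX2. SUPT3H was likewise separate and lower in large follicles, at a log2 difference of -0.51 (SE 0.22, limma adjusted p = 0.470). NR2F2 and GATA6 overlap LOC102160410 and LOC100525229 by 6017 and 47 bases. LOC100525229 had 8.89, 10.8 and 13.5 FPKM in large and 6.14 and 20.5 FPKM in small follicles. It and GATA6 were both highest in small follicle replicate 2, as were 45.9% of all tested genes.

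**Figure D5:**
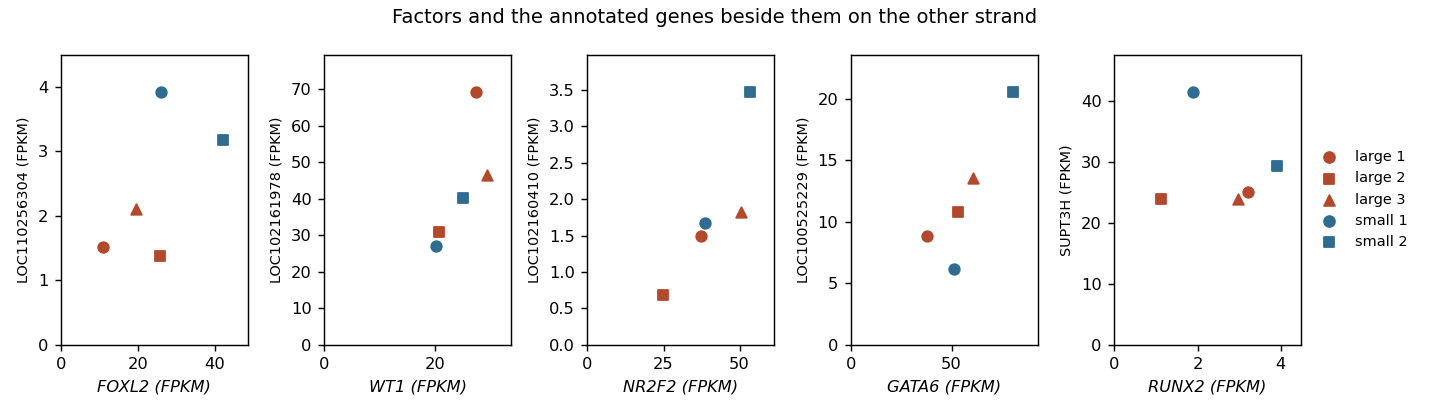
FPKM of 5 factors (horizontal) against the annotated gene on the other strand beside each (vertical) in every library, both axes from 0. In the panel of FOXL2 and LOC110256304 the small follicle libraries lie to the upper right, while the other panels mix the groups on the axis of the factor.

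Genes with the profile nearest to FOXL2 and to NR2F2 were ranked by the root mean square difference of centred log2(FPKM + 1) values over the 5 libraries, among 7547 genes with a symbol and a mean of at least 5 FPKM. For FOXL2 they were the creatine transporter SLC6A8 (0.103), LRRC59 (0.126) and the kinase WNK1 (0.132), where the median gene was at 0.640. For NR2F2 they were AP3M1 (0.0140), VPS4B (0.0222) and RAD23B (0.0360), with the median gene at 0.347. SLC6A8 had 10.8, 28.2 and 18.0 FPKM in large and 27.1 and 37.9 FPKM in small follicles, so that its groups overlapped. Those of FOXL2 were barely separate, at 25.93 against 25.99 FPKM, and the log2 differences were close, -0.82 for SLC6A8 and -0.86 for FOXL2.

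The authors' annotation gives a family to 1227 genes, 9 of the 10 factors (all but FOXL2) among them, and 791 of these genes were tested. Of the 791, 2 were called, 0.253% against 0.978% of all tested genes: GATA1 as lower and the zinc finger gene ZNF114 as higher in large follicles, the last lost with voom (adjusted p = 0.0875), with no filter (limma adjusted p = 0.151), with a replicate block (0.0503), without large follicle replicate 1 (0.125) and without small follicle replicate 1 (0.169). Each reached the filter through 1 group alone, GATA1 through small and ZNF114 through large follicles, so neither call supports a difference. The groups of the 791 were separate and lower in large follicles for 17.2%, against 15.2% of all tested genes, and separate and higher for 3.79%, against 10.9%. By mean level, GATA6 ranked 24, NR2F2 44, GATA4 45 and TCF21 48 among the 1227, with WT1 at 89, SOX4 at 93, RUNX1 at 345, LHX9 at 426 and RUNX2 at 570. RUNX1 and RUNX2 made up nearly all runt factor RNA, since RUNX3 did not exceed 0.382 FPKM.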

How the data were processed

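FPKM values per gene, 1 table per library, were computed and deposited by the authors, per the file headers. Per the submitters' processing notes, which give no roles, the tools were featureCounts 1.5.0-p3, StringTie 1.3.3, HISAT2 2.0.5, Trimmomatic 0.38 and FastQC 0.11.4, and the build was Sscrofa11.1. Per the labels' protocols, TRIzol was used for RNA and a stranded mRNA kit for paired-end libraries. Groups and replicate numbers come from the titles. Chromosomes were taken from a RefSeq table of that assembly, which held 30335 of the gene identifiers.

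Library totals were found as the whole numbers under which FPKM steps give whole fragments (tolerance 0.001). Where the listed length gave none, the shortest length doing so in every library was used. Between 99.5% and 99.6% of the totals were recovered.

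Genes at 1 FPKM or more in at least 2 libraries (13087) were fitted with limma 3.58.1 (R 4.3.3) on log2(FPKM + 1), by group, with a variance trend and Benjamini-Hochberg adjustment. Intervals come from the same fit, before adjustment. Voom, from limma, took the library totals without further scaling. The fit was also run on simulated fragments with the same dispersion for every gene and no differences between libraries beyond their totals. That run does not measure error rates in these data.

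The members and lists were chosen with earlier results of these data known. All 10 members are named; for lists, called genes and up to 3 of smallest p, and for FOXL2 and NR2F2 the 3 nearest profiles. Neighbouring genes, the family counts, the keratins, and SOX9, DMRT1, PTGDS, CLDN11, ZFPM2 and further relatives were picked after values were seen. Alternatives covered pseudocounts, filters, scaling, a replicate block, voom and each library left out. Sequences were not used here.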

Additional observations from a re-analysis of the deposited data

How the results depend on the processing

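No factor was called under any of the alternatives run. FOXL2, GATA4, GATA6 and NR2F2 stayed lower, and TCF21, WT1 and RUNX1 higher, in each. LHX9 reversed to -0.032 with a common sum of FPKM. With a replicate block it was -0.19, the same estimate as without large follicle replicate 3, since that number occurs in 1 group only. With 1 library left out, its difference ranged from -0.19 to 0.40, that of RUNX2 from -0.57 to 0.19 and that of SOX4 from -0.49 to 0.40. The reversals of LHX9 came without large follicle replicate 1 (-0.02) or 3 (-0.19), those of RUNX2 without replicate 2 of the large (0.12) or small follicles (0.19), and those of SOX4 without large follicle replicate 2 (0.40) or small follicle replicate 1 (0.06). Where a small follicle library was left out, the lone one was assumed to vary like the large ones. The cause was not tested. RUNX2 and LHX9 left the test at a mean of at least 5 FPKM.

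Over all genes 128 were called, 70 higher and 58 lower. With no filter there were 32 (15 higher, 17 lower), at a mean of at least 5 FPKM 41 (31 higher, 10 lower), with median-of-ratios scaling 202 (122 higher), with quantile normalization 201 (118 higher) and with voom 69 (39 higher, 30 lower). A common sum gave 66 higher and 86 lower. Leaving out 1 library gave 29 to 268 calls, 23 to 163 higher and 6 to 105 lower. The common sum moved the median of all genes from -0.08 to -0.19, and median-of-ratios scaling moved it to -0.0015; against these medians FOXL2 stayed lower and TCF21 higher. The difference of granulosa minus theca factors was -0.54 for FOXL2 against NR2F2 alone, and -0.04 to -0.36 with 1 library left out.

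The replicate block called 157 genes. Only 2 replicate numbers occur in both groups, and deviations from group means correlated at -0.0015 for number 1 and -0.45 for number 2. With 2 small follicle libraries their deviations mirror each other, so these values cannot decide whether the numbers pair the libraries.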
